A study of Mus musculus with 4 samples.

Results

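The genes of fatty acid oxidation, storage and synthesis were described in group 2 innate lymphoid cells (ILC2s) from the bronchoalveolar lavage (BAL) fluid of mice. The set holds 48 of the 24537 genes counted, chosen by name and function. It comprises 3 genes of the carnitine shuttle, 4 acyl-CoA synthetases, 16 beta-oxidation genes (15 mitochondrial ones and the peroxisomal thiolase gene *Acaa1a*), 5 genes of the PPAR and PGC-1 regulators, 9 genes of uptake, storage and lipolysis, and 11 genes of synthesis, elongation and desaturation. Of these, 46 had a read in at least 1 library and 42 reached the mean of 2 RPKM (reads per kilobase of exon and per unit of sequencing depth, a level per transcript length) needed to enter the test.

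Libraries were made from ILC2s of adult GATIR mice on a C57BL/6 background, in which an IRES-YFP reporter sits in the 3′ part of *Gata3* outside its coding sequence, so YFP marks every cell that transcribes *Gata3*, Th2 cells included. All 4 libraries share this reporter and the sort for Lineage-Sca-1+YFP+ cells, whose lineage antibodies include CD11b and CD11c. IL-33, an alarmin cytokine that acts on ILC2s directly, was given intranasally in 3 doses of 0.5 µg (2 libraries), and chronic HDM, a house dust mite extract, in doses of 25 µg 3 times a week for 5 weeks (2 libraries). Cells were taken 1 day after the final challenge in both groups. The labels give the IL-33 mice as Gata3-YFP/YFP and their cells as CD25High, and the HDM mice as Gata3-YFP/WT and CD25Low, whereas by the methods all mice were homozygous and the sort used no CD25 gate. Genotype, CD25 level and treatment therefore cannot be told apart here. The number of mice per library is not given in the sources used here, so a p-value here reflects spread from library to library, possibly technical.

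A long-chain fatty acid is first joined to coenzyme A by an acyl-CoA synthetase and can then take either of the routes described here. For oxidation it crosses into mitochondria as a carnitine ester and is shortened in cycles of dehydrogenation, hydration, dehydrogenation and thiolysis, with the electrons of the first step passed on by the electron transfer flavoprotein (ETF). For storage it is built into triglyceride and kept in lipid droplets coated by perilipins, and new fatty acids are made from citrate-derived acetyl-CoA, then elongated and desaturated. ILC2s are known to take up external fatty acids, and PPAR-gamma, a lipid-sensing nuclear receptor, is known in lung ILC2s.

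Sequencing gave 10696039 to 12054785 reads in genes after IL-33 and 15650709 to 16092309 after chronic HDM. Reads of 45S ribosomal RNA made up 3.45% to 4.95% and 17.4% to 25.4% of these. All 13 ILC2 markers had reads in every library, although *Gata3* itself stood at 14.9 and 18.9 RPKM after IL-33 and at 216 and 195 RPKM after chronic HDM. The HDM libraries differed more from each other, with an SD of the log2 difference between them of 1.13 over the genes tested, against 0.43 for the IL-33 libraries. Summed levels of 15 macrophage and monocyte markers were 175 and 54.4 RPKM after IL-33 against 1034 and 3259 RPKM after chronic HDM, and without *Lyz2*, the largest part of the HDM sums, 104 and 37.2 against 102 and 999.9 RPKM. Those of 10 alveolar macrophage markers, mostly *Chil3*, were 1193 and 269 against 2210 and 6305 RPKM. Some markers of other cells were higher after IL-33. The basophil gene *Mcpt8* stood at 45.8 and 39.2 RPKM against no read in either HDM library, so it entered the test through its IL-33 values alone. The B cell gene *Cd79b* stood at 38.4 and 27.4 against 8.74 and 6.67 RPKM, and *Pecam1* at 20.5 and 21.1 against 4.92 and 2.58 RPKM. *Pecam1* was the only one of 10 adipocyte and mesenchymal markers with a read. In such bulk samples, fewer cells of a type and less RNA per cell cannot be told apart, and the part that RNA of other cells plays in the values below was not tested.

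Most members were at higher levels after IL-33, but few differences passed the test. With limma and Benjamini-Hochberg adjustment over 9523 genes, and thresholds of 0.01 on the adjusted p and 1 on the log2 fold change, 1 of the 42 tested members (*Etfb*) was called higher after IL-33, where the background over all genes was 2.8%. None was called higher after chronic HDM (background 0.536%), and at an unadjusted p under 0.05 there were 18 members of either direction, beside 36.7% of all genes. At an adjusted p under 0.05 and the same fold change the counts were 11 and 0, beside backgrounds of 13.8% and 4.78%. *Fads2*, 1 of the 11, and *Elovl6* reached the level needed for the test through their IL-33 values alone, so a difference was built into their entry. The 2 libraries of a group lay wholly above those of the other in 23 members for IL-33 and in 5 for chronic HDM, where the backgrounds were 41.7% and 23.5%. The median log2 fold change of the 42 members, IL-33 minus chronic HDM on the log2(RPKM + 1) scale, was 0.43, beside 0.28 over all genes tested, and 24 members lay above that all-gene median. Other scalings lowered the median of all genes by 0.23 to 0.29, and with quantile scaling the share of all called genes that were higher after IL-33 went from 84.0% to 55.4%. Without either IL-33 library no gene of the 9523 was called, and without HDM replicate 1 or HDM replicate 2 the members called higher after IL-33 came to 14 each time, while 16.3% and 19.7% of all genes were then called in that direction. A single value compared over 2 against 2 libraries cannot go below p = 0.333 in a two-sided exact permutation test.

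**Figure D1:**
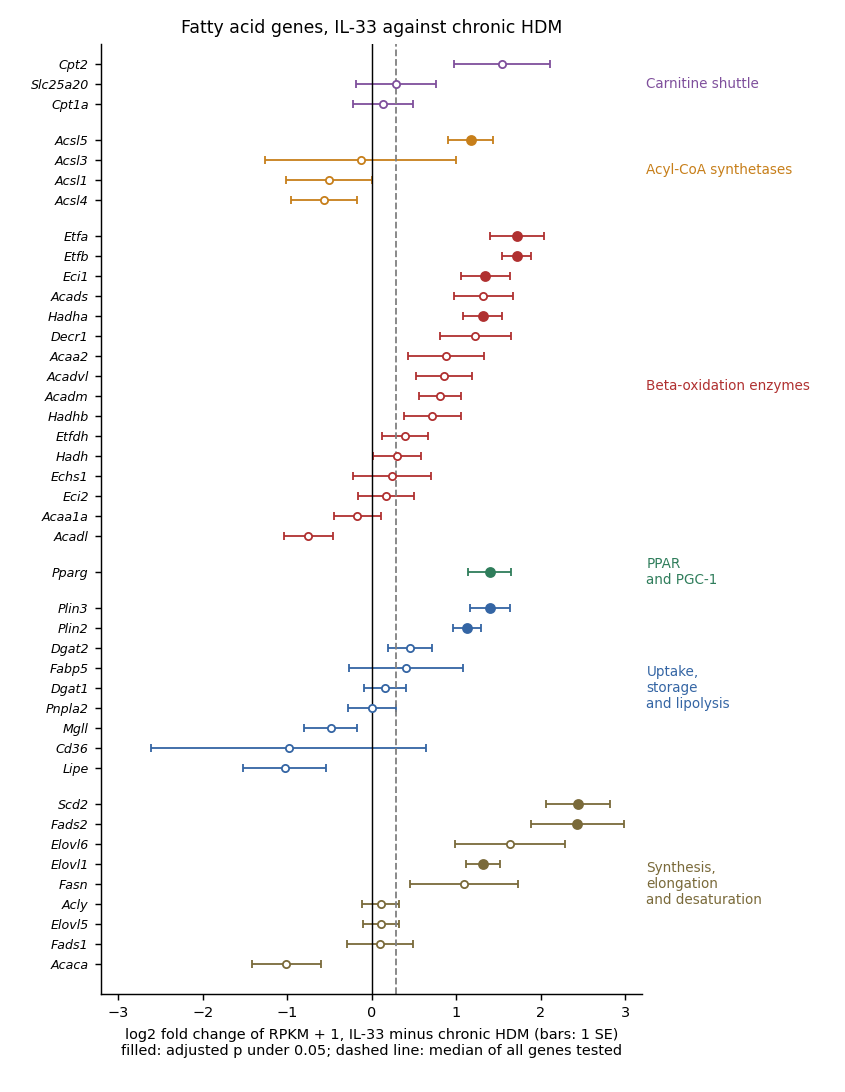
Log2 fold change of RPKM + 1 (IL-33 minus chronic HDM; bars, 1 SE) for the 42 tested fatty acid genes, grouped by role, the dashed line marking 0.28, which all genes tested had as their median. The 11 filled points have an adjusted p under 0.05 and all lie to the right, from *Plin2* at 1.12 to *Scd2* at 2.44.

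Among entry steps, the groups overlapped for the outer mitochondrial enzyme and not for the inner one. *Cpt1a*, which makes acyl-carnitine and is the regulated step of the shuttle, stood at 24.3 and 28.1 RPKM after IL-33 against 17.7 and 31.7 RPKM after chronic HDM, so the groups overlapped (log2 fold change 0.13 ± 0.36 SE). *Cpt2*, which turns acyl-carnitine back into acyl-CoA inside the mitochondrion, stood at 33.5 and 30.0 RPKM after IL-33 against 5.42 and 18.8 RPKM after chronic HDM. The groups did not overlap, but the HDM libraries differed from each other by more than 3 times, and the adjusted p was 0.115 (log2 fold change 1.54 ± 0.57 SE). Within a library, the ratio of *Cpt2* to *Cpt1a* was 1.38 and 1.07 after IL-33 against 0.305 and 0.595 after chronic HDM, a comparison that does not depend on scaling between libraries. This ratio was not among those planned and was not tested. The carrier *Slc25a20*, the highest of the 3 by mean level, stood at 35.9 and 34.4 RPKM after IL-33, between HDM values of 46.4 and 17.7 RPKM. The median of the 3 log2 fold changes was 0.28, equal to that of all genes. It became 0.72 without HDM replicate 1 and 0.53 without HDM replicate 2, and -0.08 with quantile scaling.

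One synthetase made up most of its family in every library. *Acsl5*, which activates long-chain fatty acids at mitochondria and the endoplasmic reticulum, stood at 136 and 126 RPKM after IL-33 against 71.1 and 46.5 RPKM after chronic HDM (2.22-fold, log2 fold change 1.17 ± 0.27 SE, limma adjusted p = 0.0353). Its share of the summed RPKM of the 4 synthetases was 92.3% and 92.2% after IL-33 against 83.3% and 67.0% after chronic HDM. *Acsl4*, which prefers arachidonic acid, was the only one of the 4 whose HDM libraries both lay above the IL-33 libraries (6.89 and 5.57 against 11.2 and 8.34 RPKM, adjusted p = 0.339), and its share was 4.70% and 4.08% against 13.07% and 12.04%. *Acsl1* and *Acsl3* stayed under 10 RPKM in every library, and *Acsl3* ranged from 0.092 to 9.73 RPKM within the HDM pair alone. The median of the 4 was -0.32, and 0.31 without HDM replicate 2.

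The beta-oxidation genes held the called member and 3 of the other 10 with an adjusted p under 0.05. Of its 16 genes, 11 had both IL-33 libraries above both HDM libraries (41.7% of all genes tested), 1 the reverse (23.5%), and 4 overlapped. The median log2 fold change was 0.83, and 0.34 with quantile scaling. Summed over the 16, the level was 1358 and 1349 RPKM after IL-33 against 848 and 662 RPKM after chronic HDM.

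**Figure D2:**
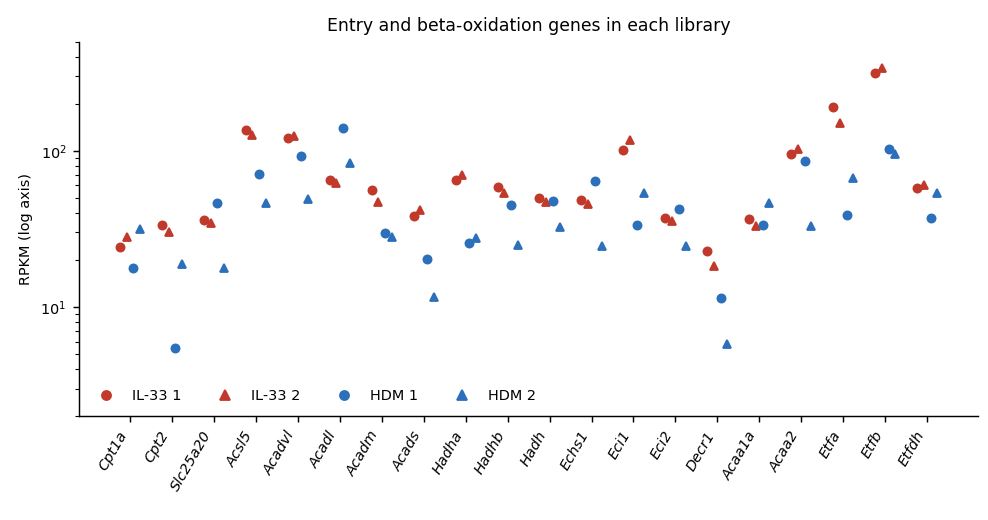
Level (RPKM, log axis) of 20 genes of fatty acid entry and beta-oxidation in each of the 4 libraries, red for IL-33 and blue for chronic HDM. The IL-33 symbols lie above both HDM symbols for *Etfb* (316 and 338 against 102 and 95.6) and *Hadha*, below both for *Acadl*, and between them for *Slc25a20*.

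*Etfb* encodes the beta subunit of ETF, the carrier that takes electrons from all acyl-CoA dehydrogenases of the pathway. Its level was 316 and 338 RPKM after IL-33 against 102 and 95.6 RPKM after chronic HDM (3.305-fold, log2 fold change 1.71 ± 0.17 SE, adjusted p = 0.0069). The libraries of each group lay close together, and by mean level it ranked at the 97.0 percentile of all genes tested. The call held in 7 of the 16 alternatives, among them the looser threshold, which keeps it by construction. Its log2 fold change stayed between 1.17 and 1.76. Without IL-33 replicate 1 or IL-33 replicate 2 its adjusted p was 0.271 and 0.269. The partner *Etfa*, the alpha subunit, stood at 190 and 152 RPKM after IL-33 against 38.5 and 67.1 RPKM after chronic HDM (3.23-fold, log2 fold change 1.72 ± 0.32 SE, adjusted p = 0.0212). Both subunits were thus higher by nearly the same fold, and the ratio of *Etfb* to *Etfa* overlapped between groups, at 1.66 and 2.23 after IL-33 against 2.66 and 1.42 after chronic HDM. *Etfdh*, the ubiquinone oxidoreductase that ETF reduces, had a smaller difference, with 57.4 and 60.6 RPKM after IL-33 against 36.9 and 53.9 RPKM after chronic HDM (log2 fold change 0.40 ± 0.27 SE, adjusted p = 0.339).

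The upstream sequences of both ETF subunit genes are shown because the genes differed by like amounts and both carry a pair of CCAAT boxes, the element bound by the factor NF-Y, close to the start of the counted transcript. Sequences are the 250 bases before that start from RefSeq (GRCm38.p6, the assembly named mm10), 5′ to 3′ on the gene's strand, with CCAAT or its reverse complement in capitals. *Etfb* lies on the plus strand (window chr7:43443822-43444071) with the boxes at -59 to -55 and -29 to -25, and *Etfa* on the minus strand (window chr9:55512244-55512493) with the boxes at -28 to -24 and -11 to -7.
Etfb: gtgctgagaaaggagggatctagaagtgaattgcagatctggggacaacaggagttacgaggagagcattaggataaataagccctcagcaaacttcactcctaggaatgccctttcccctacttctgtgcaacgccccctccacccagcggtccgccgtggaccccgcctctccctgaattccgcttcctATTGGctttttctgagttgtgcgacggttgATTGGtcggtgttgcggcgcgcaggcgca
Etfa: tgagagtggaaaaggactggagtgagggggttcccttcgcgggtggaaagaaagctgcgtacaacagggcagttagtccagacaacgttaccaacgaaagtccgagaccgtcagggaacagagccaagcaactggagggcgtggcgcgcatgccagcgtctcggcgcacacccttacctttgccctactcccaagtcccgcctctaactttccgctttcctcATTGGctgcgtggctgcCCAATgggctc

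Such a match describes letters only. A CCAAT box on either strand was present in 18 of the 39 members whose window was used (46.2%) and in 33.8% of 32851 windows of the same length, so it is common everywhere. Members with a box include *Cpt1a* and *Elovl5*, whose levels overlapped between the groups. They also include *Cd36*, whose window belongs to a start 13896 bases from that of its counted transcript. The E-box CACGTG was found in 2 of the 39 (*Elovl5* and *Mgll*; 6.02% of all windows), and the sterol element TCACNCCAC, the estrogen-related receptor element TCAAGGTCA and the DR1 repeat, each searched on both strands, in none (1.05%, 0.387% and 0.0335% of all windows). Only exact letters within these windows were searched. At such low shares none in 39 was likely whatever the genes, so it does not show that they lack such elements.

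The acyl-CoA dehydrogenases, which carry out the first step on chains of decreasing length, did not share a direction. *Acadvl*, for very long chains, stood at 120 and 124 RPKM after IL-33 against 92.4 and 48.9 RPKM after chronic HDM (adjusted p = 0.128). *Acadm*, for medium chains, stood at 56.2 and 46.9 RPKM against 29.7 and 28.2 RPKM (adjusted p = 0.0728), and *Acads*, for short chains, at 38.5 and 41.5 RPKM against 20.4 and 11.6 RPKM (log2 fold change 1.32 ± 0.35 SE, adjusted p = 0.0518). Each of the 3 lay higher after IL-33 without overlap but failed the test. *Acadl*, for long chains, was singled out after its values were seen, because it went the other way. It stood at 65.2 and 62.4 RPKM after IL-33 against 139 and 83.7 RPKM after chronic HDM (log2 fold change -0.75 ± 0.29 SE, adjusted p = 0.128). The alternatives in minimum, trend, robust fit, replicate block and threshold leave its log2 fold change at -0.75 by construction. In the others it stayed negative, from -1.28 with quantile scaling to -0.39 without HDM replicate 1, and was -1.11 without HDM replicate 2.

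As shares of a single library these values were tighter. *Acadl* took 23.3% and 22.7% of the summed RPKM of the 4 dehydrogenases after IL-33 against 49.4% and 48.5% after chronic HDM, so the difference between groups was many times the difference within them. The ratio of *Acadl* to *Acadvl* was 0.543 and 0.503 after IL-33 against 1.51 and 1.71 after chronic HDM, a log2 ratio of -0.94 ± 0.08 (SD, n = 2) against 0.68 ± 0.13 (SD, n = 2). The 4 genes together held 280 and 275 RPKM after IL-33 against 282 and 172 RPKM after chronic HDM, so HDM replicate 1 matched the IL-33 libraries in the total while differing in its makeup. These ratios were computed after the values were seen.

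**Figure D3:**
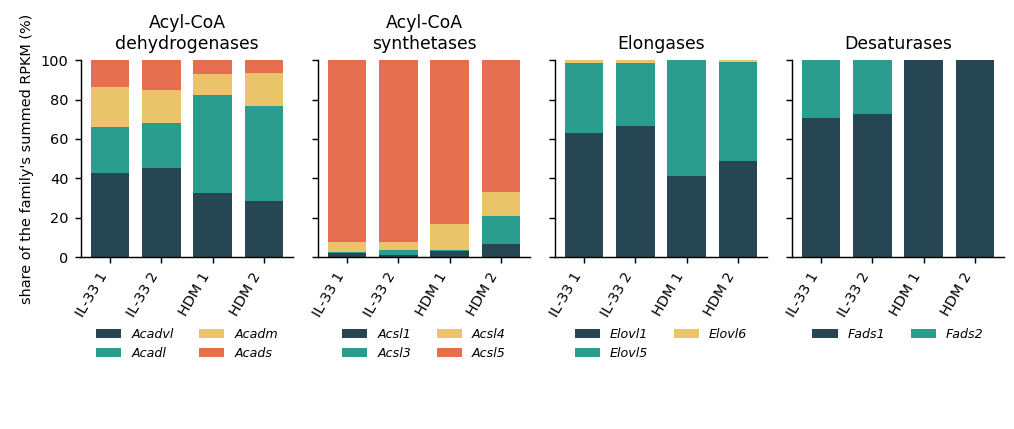
Share (%) of each gene in the summed RPKM of its family in each of the 4 libraries, for 4 acyl-CoA dehydrogenases, 4 acyl-CoA synthetases, 3 elongases and 2 desaturases. *Acadl* takes 22.7% and 23.3% after IL-33 against 48.5% and 49.4% after chronic HDM, *Acsl5* and *Elovl1* take larger shares after IL-33, and *Fads2* is present only in the IL-33 bars.

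The trifunctional protein, which performs the last 3 steps of each cycle on long chains, is encoded by neighbouring genes. *Hadha*, its alpha subunit with hydratase and dehydrogenase activity, stood at 65.1 and 70.2 RPKM after IL-33 against 25.6 and 27.7 RPKM after chronic HDM (2.54-fold, log2 fold change 1.31 ± 0.23 SE, adjusted p = 0.0191). *Hadhb*, its thiolase subunit, stood at 58.5 and 53.4 RPKM after IL-33 against 45.1 and 24.99 RPKM after chronic HDM (1.60-fold, adjusted p = 0.187). Here HDM replicate 1 kept a *Hadhb* level near that of the IL-33 libraries while its *Hadha* level did not, giving ratios of *Hadha* to *Hadhb* of 1.11, 1.31, 0.569 and 1.11 in IL-33 replicates 1 and 2 and HDM replicates 1 and 2. The genes are transcribed away from each other from starts 272 bases apart on chromosome 5, and the shared stretch is shown for that reason. The window below is that of *Hadhb* (chr5:30155003-30155252, plus strand, RefSeq, GRCm38.p6), of which 228 bases are also, read on the other strand, the window of *Hadha*. None of the 5 elements searched lies in it, so it has no capitals.
Hadhb: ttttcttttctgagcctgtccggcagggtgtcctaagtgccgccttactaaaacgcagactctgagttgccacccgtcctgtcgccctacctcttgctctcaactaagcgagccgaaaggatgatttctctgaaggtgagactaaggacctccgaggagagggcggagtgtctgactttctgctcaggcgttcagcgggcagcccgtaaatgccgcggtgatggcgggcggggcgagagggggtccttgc

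Of the remaining enzymes of the cycle, only *Eci1* had an adjusted p under 0.05. *Eci1*, an enoyl-CoA isomerase needed for unsaturated fatty acids, stood at 101 and 118 RPKM after IL-33 against 33.5 and 53.5 RPKM after chronic HDM (2.51-fold, log2 fold change 1.34 ± 0.29 SE, adjusted p = 0.0314). *Decr1*, the dienoyl-CoA reductase for polyunsaturated chains, stood at 22.9 and 18.2 RPKM after IL-33 against 11.3 and 5.79 RPKM after chronic HDM (log2 fold change 1.23 ± 0.42 SE, adjusted p = 0.0955). The second isomerase *Eci2* overlapped between groups (log2 fold change 0.17 ± 0.33 SE). The hydratase *Echs1*, the dehydrogenase *Hadh* and the thiolase *Acaa1a*, whose reads may be shared with its near-copy *Acaa1b*, overlapped as well, with log2 fold changes of 0.24, 0.30 and -0.17. The mitochondrial thiolase *Acaa2* stood at 95.2 and 103 RPKM after IL-33 against 85.8 and 33.1 RPKM after chronic HDM, without overlap but with an adjusted p of 0.22.

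Among the PPAR and PGC-1 genes, *Pparg* was the only one at a level that entered the test. *Pparg* stood at 142 and 119 RPKM after IL-33 against 57.8 and 40.8 RPKM after chronic HDM (2.64-fold, log2 fold change 1.40 ± 0.26 SE, adjusted p = 0.0207), at the 90.7 percentile of the genes tested. It made up 97.6% to 99.96% of the summed RPKM of the 3 PPAR genes in every library. *Ppara* and *Ppargc1a* had no read in any of the 4 libraries, and *Ppard* stood under 0.2 RPKM in all but HDM replicate 1 (1.41 RPKM). *Ppargc1b* stood at 1.43 and 1.68 RPKM after IL-33 against 0.1 and 0.657 RPKM after chronic HDM, without overlap but below the level tested. Alveolar macrophages are also known for high PPAR-gamma. The library with the lowest *Pparg*, HDM replicate 2, had the highest sum of alveolar macrophage markers (6305 RPKM), and the part of such cells in the *Pparg* levels was not tested.

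Lipid droplet coats were higher after IL-33 in all libraries, though under 0.05 and not under 0.01 in adjusted p, while neither *Dgat* gene and none of the 3 lipase genes passed either threshold. *Plin2*, the perilipin found on droplets of most cells, was the highest of its group, at 338 and 294 RPKM after IL-33 against 144 RPKM in each HDM library (2.19-fold, log2 fold change 1.12 ± 0.17 SE, adjusted p = 0.0132). The SD of the HDM pair was 0.337 RPKM, and the mean level ranked at the 97.4 percentile of genes tested. *Plin3*, a coat protein of small and nascent droplets, stood at 81.6 and 86.3 RPKM after IL-33 against 27.7 and 35.3 RPKM after chronic HDM (2.67-fold, log2 fold change 1.40 ± 0.24 SE, adjusted p = 0.0182). Their proportion hardly moved, since *Plin2* took 80.6% and 77.3% of the pair after IL-33 against 83.9% and 80.3% after chronic HDM. Under quantile scaling the *Plin2* difference was 0.58 on the log2 scale, and without HDM replicate 1 or HDM replicate 2 it was called.

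Both perilipin genes carry a single CCAAT box at nearly the same distance from the start, at -73 to -69 in *Plin2* (chr4:86670060-86670309, minus strand) and -75 to -71 in *Plin3* (chr17:56290512-56290761, minus strand). The windows, from RefSeq as before with the box in capitals, are shown because the pair differed alike.
Plin2: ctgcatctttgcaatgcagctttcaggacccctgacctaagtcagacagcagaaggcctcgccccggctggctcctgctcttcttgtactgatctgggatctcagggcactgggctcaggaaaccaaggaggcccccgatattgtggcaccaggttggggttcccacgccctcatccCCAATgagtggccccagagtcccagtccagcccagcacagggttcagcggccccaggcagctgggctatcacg
Plin3: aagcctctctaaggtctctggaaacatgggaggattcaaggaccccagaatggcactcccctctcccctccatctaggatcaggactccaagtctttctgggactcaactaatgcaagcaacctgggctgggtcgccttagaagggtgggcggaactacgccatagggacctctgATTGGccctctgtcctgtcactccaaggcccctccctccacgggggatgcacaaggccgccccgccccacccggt

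*Dgat1* and *Dgat2*, which add the last acyl chain of triglyceride, stood at 23.6 to 49.3 RPKM over all libraries, and *Dgat2* alone did not overlap (37.1 and 34.9 against 28.6 and 23.6 RPKM, adjusted p = 0.263). The lipases act in sequence on triglyceride, diglyceride and monoglyceride. *Pnpla2*, the first of them, differed least of all 42 members, at 22.4 and 22.2 RPKM after IL-33 against 19.96 and 24.9 RPKM after chronic HDM, with an SE of 0.28 on the log2 scale. *Lipe*, hormone-sensitive lipase, stood at 3.22 and 5.71 RPKM after IL-33 against 7.30 and 13.3 RPKM after chronic HDM, higher in both HDM libraries (log2 fold change -1.03 ± 0.49 SE, adjusted p = 0.188). *Mgll* showed the same order at 11.0 and 11.5 against 17.8 and 14.8 RPKM (adjusted p = 0.319). As a share of the 3 lipases, *Pnpla2* took 61.1% and 56.3% after IL-33 against 44.4% and 47.0% after chronic HDM.

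**Figure D4:**
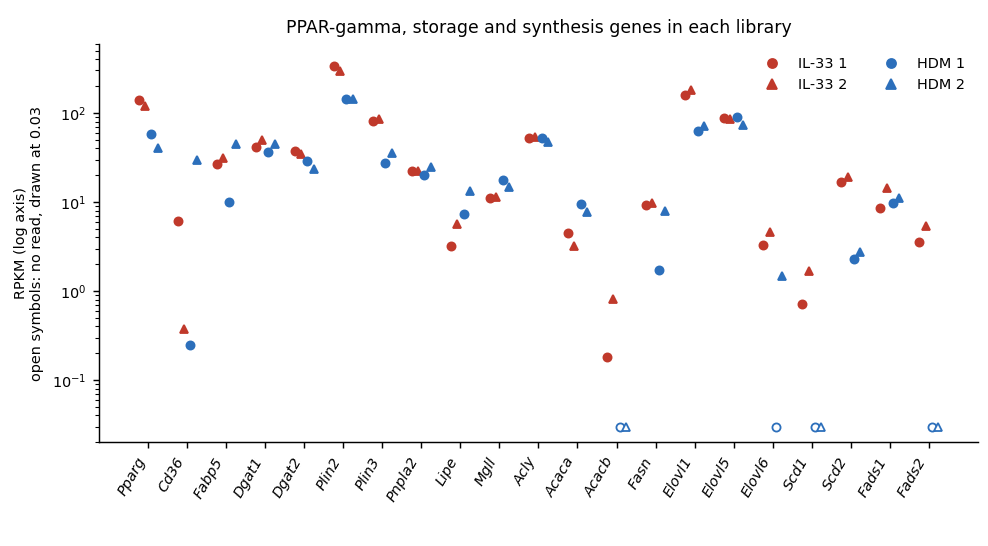
Level (RPKM, log axis) of *Pparg* and of 20 genes of storage and synthesis in each of the 4 libraries, red for IL-33 and blue for chronic HDM, with open symbols at the bottom for libraries without a read. *Acacb*, *Scd1* and *Fads2* have no read in either HDM library, *Elovl6* has none in HDM replicate 1, and *Cd36* spreads from 0.246 to 29.7 RPKM within the HDM pair.

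The uptake genes varied with single libraries. *Cd36*, a fatty acid translocase that macrophages also carry and that was named for its spread after its values were seen, stood at 6.12 and 0.378 RPKM after IL-33 against 0.246 and 29.7 RPKM after chronic HDM. Its log2 fold change of -0.98 ± 1.63 (SE) became 1.33 without HDM replicate 2 and -3.29 without HDM replicate 1, and neither replicate of either group stood near its partner. The lipid-binding *Fabp4* and the lipase *Lpl*, both outside the 48 genes, were likewise highest in HDM replicate 2, at 53.6 and 15.4 RPKM. They were next highest in IL-33 replicate 1, at 6.85 and 3.93 RPKM. The macrophage marker sum was highest in HDM replicate 2 (3259 RPKM) and next in HDM replicate 1 (1034 RPKM), against 175 RPKM in IL-33 replicate 1. Without *Lyz2* it was 102 RPKM in HDM replicate 1 and 104 RPKM in IL-33 replicate 1. HDM replicate 1 had the lowest *Cd36* level and no *Lpl* read. Of the 15 markers, 7 had no read there, against 5 in each IL-33 library and 1 in HDM replicate 2. The part of macrophage RNA in these levels was not tested. *Fabp5*, the epidermal fatty acid binding protein that lymphocytes also use, stood at 26.4 and 31.4 RPKM after IL-33 between HDM values of 10.1 and 44.9 RPKM. For the 9 genes of this group the median log2 fold change was 0.15. It turned to -0.15 without HDM replicate 1 and to -0.28 with quantile scaling.

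**Figure D5:**
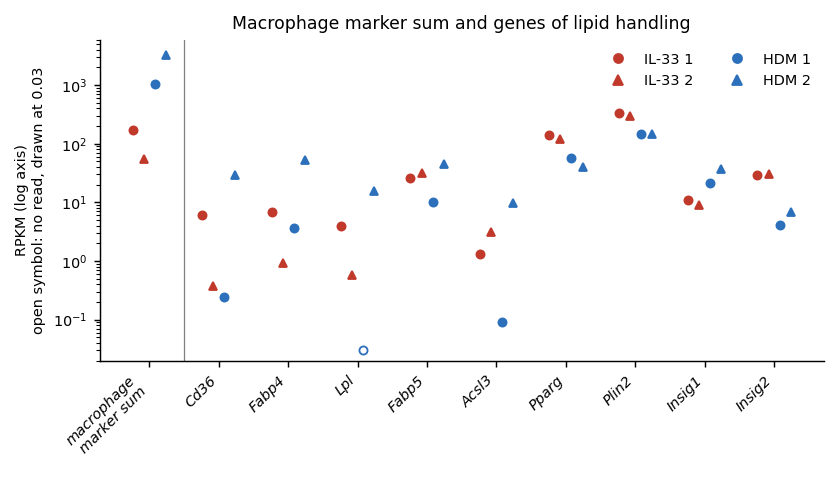
Level (RPKM, log axis) in each of the 4 libraries of the summed macrophage and monocyte markers, left of the line, and of single lipid genes, right of it, with an open symbol at the bottom for no read. The marker sum, *Cd36*, *Fabp4* and *Lpl* are highest in HDM replicate 2, whereas *Pparg*, *Plin2* and *Insig2* are higher in both IL-33 libraries, and *Insig1* is lower in both.

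New synthesis showed unequal differences from step to step. *Acly*, which makes cytosolic acetyl-CoA from citrate, hardly differed, at 52.5 and 54.3 RPKM after IL-33 against 52.2 and 47.0 RPKM after chronic HDM (log2 fold change 0.11 ± 0.22 SE). *Acaca*, the acetyl-CoA carboxylase that commits carbon to synthesis, was lower in both IL-33 libraries, at 4.46 and 3.21 RPKM against 9.61 and 7.78 RPKM (log2 fold change -1.01 ± 0.41 SE, adjusted p = 0.143). *Fasn*, which builds the chain, was higher in both, at 9.21 and 9.73 RPKM against 1.74 and 7.82 RPKM (log2 fold change 1.09 ± 0.64 SE, adjusted p = 0.271). The ratio of *Fasn* to *Acaca* was thus 2.07 and 3.04 after IL-33 against 0.181 and 1.01 after chronic HDM. Since each gene already separated the groups, in opposite directions, this ratio had to separate them and adds no support. *Acacb*, the mitochondrial carboxylase form whose product inhibits CPT1, stayed below the level tested. It had 20 and 80 reads after IL-33 (0.181 and 0.808 RPKM) and none after chronic HDM. Its level after IL-33 was at least 26.1-fold higher when 3 reads are taken as the floor of each HDM library, a floor that covers counting error only.

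Among the desaturases was the largest log2 fold change of the 42 tested members. *Scd2*, a stearoyl-CoA desaturase that makes monounsaturated chains in brain and other tissues, stood at 16.8 and 19.3 RPKM after IL-33 against 2.27 and 2.75 RPKM after chronic HDM (7.18-fold, log2 fold change 2.44 ± 0.38 SE, adjusted p = 0.0141). *Scd1*, the main liver form, reached 0.711 and 1.69 RPKM after IL-33, without a read after chronic HDM, at least 36.4-fold higher, but below the level tested. *Scd2* supplied at least 91.9% of the summed level of both in every library. *Fads2*, the delta-6 desaturase that starts the making of long polyunsaturated chains, had 70 and 94 reads after IL-33 (3.58 and 5.36 RPKM) and none after chronic HDM, at least 41.8-fold higher (adjusted p = 0.0356, for a gene that entered the test only through its IL-33 level). Its fitted log2 fold change depends on the pseudocount and is no bound. *Fads1*, the delta-5 desaturase of the same pathway, overlapped at 8.65 and 14.4 RPKM against 9.70 and 11.2 RPKM, so *Fads2* made up 29.3% and 27.1% of the pair after IL-33 against 0% after chronic HDM. Over all genes tested, 125 (1.31%) had no read in both HDM libraries and 26 (0.273%) none in both IL-33 libraries, although the HDM libraries were the deeper ones. That base holds *Fads2* but neither *Scd1* nor *Acacb*, which were too low to be tested. Of all genes counted, 13102 and 12895 had a read after IL-33 against 10675 and 12134 after chronic HDM.

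Of the 3 elongases, only *Elovl1* had an adjusted p under 0.05. *Elovl1*, which extends saturated and monounsaturated chains to very long lengths, stood at 157 and 180 RPKM after IL-33 against 63.1 and 70.8 RPKM after chronic HDM (2.51-fold, log2 fold change 1.32 ± 0.20 SE, adjusted p = 0.0132), the highest mean level of the synthesis genes over the 4 libraries. *Elovl5*, which extends polyunsaturated chains, overlapped at 88.6 and 85.7 against 90.1 and 72.7 RPKM (log2 fold change 0.10 ± 0.21 SE). As a share of the 3 elongases, *Elovl1* took 63.1% and 66.6% after IL-33 against 41.2% and 48.8% after chronic HDM, so *Elovl1* led *Elovl5* in both IL-33 libraries and trailed it in both HDM libraries. *Elovl6*, which takes palmitate to stearate, was low throughout, at 3.26 and 4.59 RPKM after IL-33 against 0 and 1.47 RPKM after chronic HDM (adjusted p = 0.136). For comparison with the perilipin pair, the *Elovl1* window (chr4:118427843-118428092, plus strand, RefSeq, GRCm38.p6) is rich in G and C (72.0%) and holds its only CCAAT box, in capitals, at -35 to -31.
Elovl1: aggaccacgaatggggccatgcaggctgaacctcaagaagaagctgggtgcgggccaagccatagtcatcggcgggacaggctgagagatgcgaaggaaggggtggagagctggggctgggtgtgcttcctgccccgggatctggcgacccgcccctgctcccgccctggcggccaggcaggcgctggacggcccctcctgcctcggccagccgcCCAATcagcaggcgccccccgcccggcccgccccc

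Over the 11 synthesis genes the median log2 fold change was 1.09, or 0.55 without HDM replicate 1. The summed levels of the routes did not part from each other, however, but these sums weigh genes by level. *Elovl1*, *Elovl5* and *Acly* gave 157, 88.6 and 52.5 of the 345 RPKM of synthesis in IL-33 replicate 1. In HDM replicate 1 they gave 63.1, 90.1 and 52.2 of 229 RPKM. The ratio therefore says little of the low genes, which count equally in the median. The log2 ratio of summed synthesis to summed beta-oxidation levels was -1.98 and -1.83 after IL-33 against -1.89 and -1.58 after chronic HDM, a difference of -0.17 with overlapping libraries.

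The wider pathway was read from 130 other genes in 11 lists, of which 129 were in the files and 82 were tested. None was called in either direction, and at an adjusted p under 0.05, 9 were higher after IL-33 against 3 after chronic HDM (backgrounds 13.8% and 4.78%). The 3 were *Srebf2*, given below, *Slc27a6* (log2 fold change -2.29 ± 0.49 SE, adjusted p = 0.0315) and *Abcd4* (-2.02 ± 0.44 SE, adjusted p = 0.0316). *Slc27a6* and *Abcd4* reached the level needed for the test through their HDM values alone. Both libraries lay above those of the other group in 29 for IL-33 and 23 for chronic HDM (41.7% and 23.5% of all genes), and the median log2 fold change was 0.19. *Tecr* and *Hacd3*, which complete the elongation cycle that *Elovl1* starts, were the highest of their list, with *Hacd3* at 133 and 132 RPKM after IL-33 against 48.6 and 35.2 RPKM after chronic HDM (log2 fold change 1.65 ± 0.24 SE, adjusted p = 0.0127) and *Tecr* at 302 and 266 against 186 and 104 RPKM (adjusted p = 0.0742). *Bscl2*, encoding seipin, which shapes nascent lipid droplets, stood at 155 and 152 RPKM after IL-33 against 53.8 and 40.4 RPKM after chronic HDM (log2 fold change 1.70 ± 0.23 SE, adjusted p = 0.0111). *Lipa*, the second highest of the droplet list, went the other way, at 19.5 and 19.6 against 38.7 and 37.4 RPKM (log2 fold change -0.93 ± 0.25 SE, adjusted p = 0.0565). *Agpat4*, a lysophosphatidic acid acyltransferase, stood at 95.0 and 91.4 RPKM after IL-33 against 1.12 and 9.82 RPKM after chronic HDM (log2 fold change 4.30 ± 0.76 SE, adjusted p = 0.0194), and *Gpat4*, which starts glycerolipid synthesis, had a log2 fold change of 1.58 ± 0.39 SE (adjusted p = 0.0435).

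*Slc25a1*, the citrate carrier that exports carbon for synthesis, was the highest gene of its list at 60.2 and 51.8 RPKM after IL-33 against 30.7 and 26.3 RPKM after chronic HDM (log2 fold change 0.95 ± 0.25 SE, adjusted p = 0.0496). *Ucp2*, an inner mitochondrial carrier and PPAR target, stood at 367 to 476 RPKM in all libraries with overlap. *Dbi*, the acyl-CoA binding protein, stood at 170 and 143 RPKM after IL-33 against 114 and 111 RPKM after chronic HDM (adjusted p = 0.14). For peroxisomal oxidation, 5 of 19 tested genes lay higher after IL-33 without overlap and 8 after chronic HDM (41.7% and 23.5% of all genes), with a median of -0.09. *Pex16*, a peroxisome assembly gene and the highest of that list, stood at 55.0 and 65.5 against 36.4 and 39.6 RPKM (adjusted p = 0.11).

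The regulators of sterol and fatty acid synthesis split in direction, and were named after their values were seen. *Insig2*, an endoplasmic reticulum anchor that retains the SREBP precursors, stood at 29.0 and 30.8 RPKM after IL-33 against 4.11 and 6.89 RPKM after chronic HDM (log2 fold change 2.28 ± 0.37 SE, adjusted p = 0.0153). *Insig1*, its partner with the same role and itself a known SREBP target, went the other way at 11.2 and 8.87 against 21.5 and 37.1 RPKM (log2 fold change -1.42 ± 0.38 SE, adjusted p = 0.054). Their ratio within a library was 2.60 and 3.47 after IL-33 against 0.192 and 0.186 after chronic HDM. It had to separate the groups, since each gene already did so in opposite directions. *Srebf2*, encoding SREBP2, was lower in both IL-33 libraries at 11.9 and 17.3 against 40.6 and 34.6 RPKM (log2 fold change -1.32 ± 0.31 SE, adjusted p = 0.039), and *Srebf1*, encoding SREBP1, at 7.56 and 10.04 against 26.3 and 19.9 RPKM (adjusted p = 0.0527). *Acaca* shared this order, while *Scd2*, *Fads2* and *Elovl1*, all known as genes of the same synthesis routes, had the opposite one.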

How the data were processed

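Per the file headers and the methods, the authors aligned single 51-bp Smart-seq2 reads to mm10 (HISAT2, listed as 2.0.4 by the submitters' processing notes). They deposited RPKM values that HOMER counted over exons of 1 RefSeq transcript per gene. Smart-seq2 marks neither molecules nor strand, so counting limits cover counting error only and reads of overlapping genes cannot be told apart. Here the RPKM values of 24537 genes (10089 without a read) were put on the log2(RPKM + 1) scale. Genes averaging 2 RPKM or more (9523) were tested genome-wide in limma (3.58.1, R 4.3.3) by a two-sided empirical Bayes test with its variance trend on, followed by Benjamini-Hochberg adjustment. Calls needed the adjusted p below 0.01 and a log2 fold change beyond 1. The main test used no count model, since the values are RPKM. A limma-voom fit on reads recovered from them was run as an alternative only. Steps of 1 read in the RPKM values gave the depth: 99.8% to 100% of values worth up to 20 reads were whole within 0.1 read. On a transcript of 1 kb, 3 reads are 0.156 to 0.255 RPKM.

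The members and lists were chosen with earlier results of these data known. Planned beforehand were the synthesis to oxidation ratio and the shares within the *Acsl*, *Scd*, *Dgat*, *Elovl*, *Fads*, PPAR, PGC-1 and *Acaca* and *Acacb* families. The other ratios and shares were not planned, and none of the ratios or shares was tested. The text gives each library's value for members called, for those with separate groups and a log2 fold change over 1, for the highest of each list, and for others as said; of other pathway lists, up to 2 genes with the highest mean. Upstream windows of 250 bases, matched by symbol, were used for 39 of 48 members. The window with the nearest start was taken. That start lay away from the start of the counted transcript by 13896 bases for *Cd36*, 13804 for *Ppargc1a*, 212 for *Ppara*, 38 for *Slc25a20* and 2 for *Echs1*. Member windows on chromosome 18 were left out, which excludes *Acaa2* and *Ppargc1b*, while the 32851 background windows were not restricted in this way. *Decr1*, *Dgat1*, *Dgat2*, *Fabp5*, *Fads1*, *Scd1* and *Scd2* had none in the table used. Alternatives covered the pseudocount (0.1 and 2), the minimum (none and 5 RPKM), scaling (median of ratios, quantiles, without 45S ribosomal RNA), a fit without trend, a robust fit, limma-voom on recovered reads, a replicate block, the threshold and leaving out each library. Figures were drawn with matplotlib.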

Additional observations from a re-analysis of the deposited data

How the results depend on the processing

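The count of members called higher after IL-33 (1 of 42) became 0 with a pseudocount of 0.1, without a minimum (46 tested), with scaling by median of ratios, by quantiles or without 45S ribosomal RNA, without the trend and with voom, 3 with a minimum of 5 RPKM (38 tested), and 11 at an adjusted p under 0.05. Leaving out each library, where the lone sample is assumed to vary like the other group, gave 0 to 14, and for chronic HDM 0 to 1 (*Acadl* without HDM replicate 2). Over all genes, 267 and 51 calls became 148 and 119 with quantile scaling, and 0 and 0 with voom. The replicate numbers share only a number (correlation of deviations across genes -0.04); with the replicate block 10 members and, over all genes, 987 and 267 were called. The median of the carnitine shuttle was 0.029, -0.083 and 0.0039 under median of ratios, quantiles and without 45S, and 0.25 to 0.72 leaving out libraries. Beta-oxidation was 0.34 with quantiles. The PPAR group was 1.41 and 0.59 with pseudocounts of 0.1 and 2, 0.51 with quantiles, and 0.62 to 1.15 leaving out libraries. Storage was -0.28 with quantiles, -0.13 without 45S, and -0.15 to 0.32 leaving out libraries, the synthetases -0.58 to 0.31, and synthesis 0.55 to 1.13.

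Of the 42 members, 27 kept their direction in every alternative, and 15 reversed in at least 1. The alternatives in minimum, trend, robust fit, replicate block and threshold cannot change a fold change, so a direction could reverse only in the others. Under median of ratios, quantiles and without 45S, in that order, *Cpt1a* was -0.12, -0.19 and -0.15, *Echs1* -0.018, -0.19 and -0.043, *Eci2* -0.085, -0.22 and -0.11, *Dgat1* -0.10, -0.28 and -0.13, *Acly* -0.15, -0.37 and -0.18, *Elovl5* -0.15, -0.44 and -0.18, and *Fads1* -0.15, -0.054 and -0.17. Quantiles alone reversed *Slc25a20* (-0.083), *Hadh* (-0.14) and *Etfdh* (-0.090). With voom *Acly* was -0.010, *Elovl5* -0.012, *Fads1* -0.035 and *Acsl3* 0.95, and *Acsl3* was 0.66 with a pseudocount of 0.1. Leaving out each library gave *Cpt1a* -0.27 to 0.53, *Slc25a20* -0.39 to 0.95, *Echs1* -0.43 to 0.91, *Eci2* -0.21 to 0.55, *Acsl3* -1.78 to 1.52, *Acaa1a* -0.41 to 0.061, *Cd36* -3.29 to 1.33, *Fabp5* -0.62 to 1.42, *Pnpla2* -0.15 to 0.15, *Elovl5* -0.048 to 0.26 and *Fads1* -0.25 to 0.43. The cause of these changes was not tested. Depth limits *Acacb*, *Scd1* and *Fads2*, for which no read in the HDM libraries gives a bound only.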
